A study of Mus musculus with 3 samples.

Results

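miR-21a is the mouse form of miR-21, and both strands of its hairpin were measured: miR-21a-5p, the guide strand, and miR-21a-3p, the passenger strand. Inserts were taken as miR-21a when they began at the 5′ end of one of these arms and matched the Mir21a precursor for at least 16 nt, which gave 2 of the 419 miRNA entries counted in these libraries. Small RNAs of 18 to 30 nt were purified from the liver of C57BL/6 mice that had received, 4 weeks before, an injection of scAAV9, a form of adeno-associated virus with a self-complementary genome that reaches hepatocytes well. The TuD-miR-122 group received a vector expressing a Tough Decoy (TuD) against miR-122, the TuD-let-7 group a vector expressing a TuD against let-7, and the mock group the same kind of vector with no TuD. All groups therefore carried scAAV9, and an uninjected group was not analysed here. A TuD is a hairpin RNA that offers binding sites to its target miRNA, and neither decoy was directed at miR-21a. The sources used here give neither the promoter of the decoys nor the number of animals behind each library.

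miR-21 binds mRNAs through its seed, bases 2 to 8, and lowers their output, with Pdcd4 and Spry family mRNAs among its best-known targets. It is made in many cell types, hepatocytes, macrophages and stellate cells included, and is known from liver regeneration, fibrosis and tumours. The 5p strand is the one that Argonaute proteins mostly keep, while the 3p strand is usually lost.

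The Mir21a gene (ENSMUSG00000065455.1) lies on the minus strand at chr11:86584067-86584158 of GRCm38. It is inside the gene Vmp1 (ENSMUSG00000018171.9, chr11:86583865-86683836, same strand), within exon 12 of transcript Vmp1-201 and within the part of that exon annotated as UTR. RefSeq on GRCm38.p6 places miR-21a-5p at chr11:86584120-86584141 and miR-21a-3p at chr11:86584082-86584103. The mouse genome holds a pair of further miR-21 genes, Mir21b on chromosome 3 and Mir21c on chromosome 8. The mature sequences from RefSeq are shown to separate the arms and these relatives, with the seed in capitals:
miR-21a-5p: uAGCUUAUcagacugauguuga
miR-21a-3p: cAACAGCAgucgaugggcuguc
miR-21b: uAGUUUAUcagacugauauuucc
miR-21c: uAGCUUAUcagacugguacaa
miR-21c shares the seed of miR-21a-5p, and miR-21b differs from it in the seed by C4U (the miR-21a-5p base first, positions numbered from 1 at the 5′ terminus). Both relatives differ from miR-21a-5p at position 18 by G18A. Reads that matched a relative over at least 20 nt numbered 1 in TuD-miR-122, 0 in TuD-let-7 and 0 in mock for miR-21b, and 0 in each library for miR-21c. The reads described here are therefore those of Mir21a itself, down to the limit of 3 reads that a count of 0 allows.

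The deposited inserts, written with T for U, carried the 3′ forms that the results turn on. Capitals mark bases beyond the 22-nt mature 5p sequence, or, on the 3p arm, bases that do not match the precursor:
miR-21a-5p, 22 nt: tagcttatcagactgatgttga
miR-21a-5p, 23 nt: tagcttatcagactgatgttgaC
miR-21a-5p, 24 nt: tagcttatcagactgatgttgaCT
miR-21a-5p, 22 nt with an added A: tagcttatcagactgatgttgaA
miR-21a-5p, 23 nt with an added A: tagcttatcagactgatgttgaCA
miR-21a-3p, 21 nt with an added AA: caacagcagtcgatgggctgtAA

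The libraries held 3681585 reads in TuD-miR-122, 2066892 in TuD-let-7 and 3450317 in mock, and miRNAs made up 72.0% of reads with TuD-miR-122, 73.1% with TuD-let-7 and 78.5% in mock. Each group had 1 library. Differences between groups therefore lack a replicate check, no test between them was possible, and every interval is an exact 95% interval for counting error only, since PCR copies were counted as separate reads. Levels are RPM computed on the non-target miRNA reads, that is, without those of miR-122 and let-7 loci. There were 1452487 of these in TuD-miR-122, 487707 in TuD-let-7 and 1377806 in mock. miR-122-5p, the hepatocyte miRNA, was the most abundant miRNA in every library and made up 32.6% of miRNA reads in TuD-miR-122, 64.6% in TuD-let-7 and 37.7% in mock. Skeletal muscle miRNAs stood apart between libraries: miR-1a-3p, miR-133a-3p and miR-206-3p summed to 921 RPM in TuD-miR-122, 213 RPM in TuD-let-7 and 9739 RPM in mock. Pancreas miRNAs did so as well, with miR-216a-5p, miR-217-5p and miR-375-3p summing to 1404 RPM in TuD-miR-122, 154 RPM in TuD-let-7 and 110 RPM in mock.

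miR-21a-5p was the second most abundant miRNA of each liver library, after miR-122-5p. It had 408399 reads in TuD-miR-122, 108447 reads in TuD-let-7 and 370176 reads in mock. These were 281172 RPM in TuD-miR-122, 222361 RPM in TuD-let-7 and 268671 RPM in mock, so this arm alone gave 28.1% of the non-target miRNA reads in TuD-miR-122, 22.2% in TuD-let-7 and 26.9% in mock. Against all miRNA reads its share was 15.4% in TuD-miR-122, 7.18% in TuD-let-7 and 13.7% in mock. The rank of 2 held in every library under each of the other read assignments tried.

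In neither decoy library did miR-21a-5p differ from mock by 2-fold on the non-target scale. Its level in TuD-miR-122 over mock was 1.05 (interval 1.04 to 1.05), and the median was 0.986 over 227 non-target miRNAs, those whose reads over both libraries came to 100 or more. Its level in TuD-let-7 over mock was 0.828 (0.822 to 0.833), with a median of 0.983 over 193 such miRNAs. A miRNA was counted as changed when its interval lay wholly above 2 or below 0.5, and by this rule 42 of 227 miRNAs (18.5%) changed in TuD-miR-122, 13.7% as higher and 4.85% as lower. In TuD-let-7, 15 of 193 (7.77%) changed, 3.63% as higher and 4.15% as lower. Neither miR-21a arm was among them, 0 of 2 in both comparisons. Ratios lay within 2-fold of mock for 79.3% of the miRNAs in TuD-miR-122 and for 85.5% in TuD-let-7, so a ratio like that of miR-21a-5p was the usual case. In liver as a whole, fewer cells of a type and less RNA per cell cannot be told apart.

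**Figure D1:**
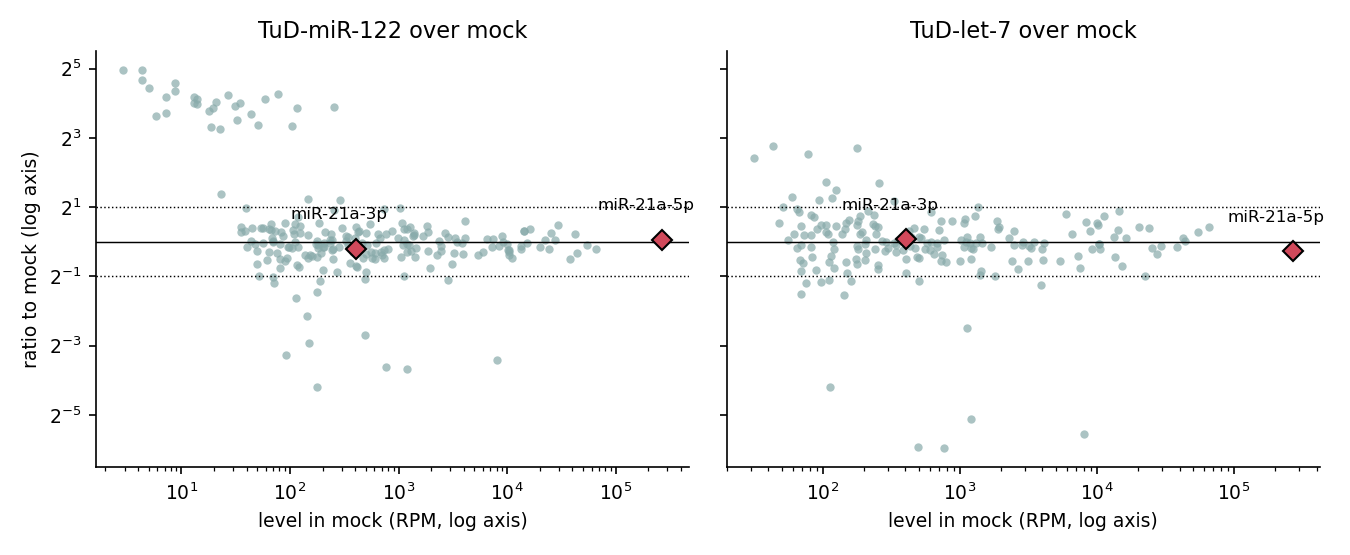
Ratio to mock (vertical, log axis) against the level in mock in RPM (horizontal, log axis) for each non-target miRNA with at least 100 reads over both libraries, for TuD-miR-122 (left) and TuD-let-7 (right); dotted lines mark ratios of 2 and 0.5, and miRNAs with 0 reads in 1 of the 2 libraries are not drawn. The diamonds are miR-21a-5p, at 1.05 for TuD-miR-122 and 0.828 for TuD-let-7, and miR-21a-3p, at 0.872 for TuD-miR-122 and 1.06 for TuD-let-7, all between the dotted lines.

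The passenger arm was scarce. miR-21a-3p had 513 reads in TuD-miR-122, 210 in TuD-let-7 and 558 in mock, or 353 RPM in TuD-miR-122, 431 RPM in TuD-let-7 and 405 RPM in mock. Its rank was 127 in TuD-miR-122, 109 in TuD-let-7 and 117 in mock. The ratio over mock was 0.872 (0.772 to 0.985) in TuD-miR-122 and 1.06 (0.903 to 1.25) in TuD-let-7. The first interval lay just below 1 and the second held 1.

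The value for TuD-let-7, the library with the largest share of miR-122-5p, depended on the reads used for scaling. Scaled to all reads, miR-21a-5p was 0.489 of mock (0.486 to 0.492), which passed the 2-fold rule, as did 19.7% of the 193 miRNAs as lower, while the median non-target miRNA was itself 0.581 of mock, a shift of -0.78 on the log2 scale. By that scaling 4 miRNAs passed the rule as higher and 38 as lower in TuD-let-7, whereas the non-target scale gave 7 as higher and 8 as lower. Scaled to all miRNA reads, miR-21a-5p was 0.525 of mock (0.521 to 0.528), with a median of 0.623. A scaling multiplies every miRNA of a library by the same factor, so the place of miR-21a-5p relative to the median is the same on each scale. In TuD-miR-122 its ratio ran between 1.02 and 1.13 over the 5 scales tried. Because the arm is itself a large part of the denominator, a scale without both miR-21a arms was also used, which gave 1.06 (1.06 to 1.07) in TuD-miR-122 and 0.778 (0.773 to 0.784) in TuD-let-7.

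**Figure D2:**
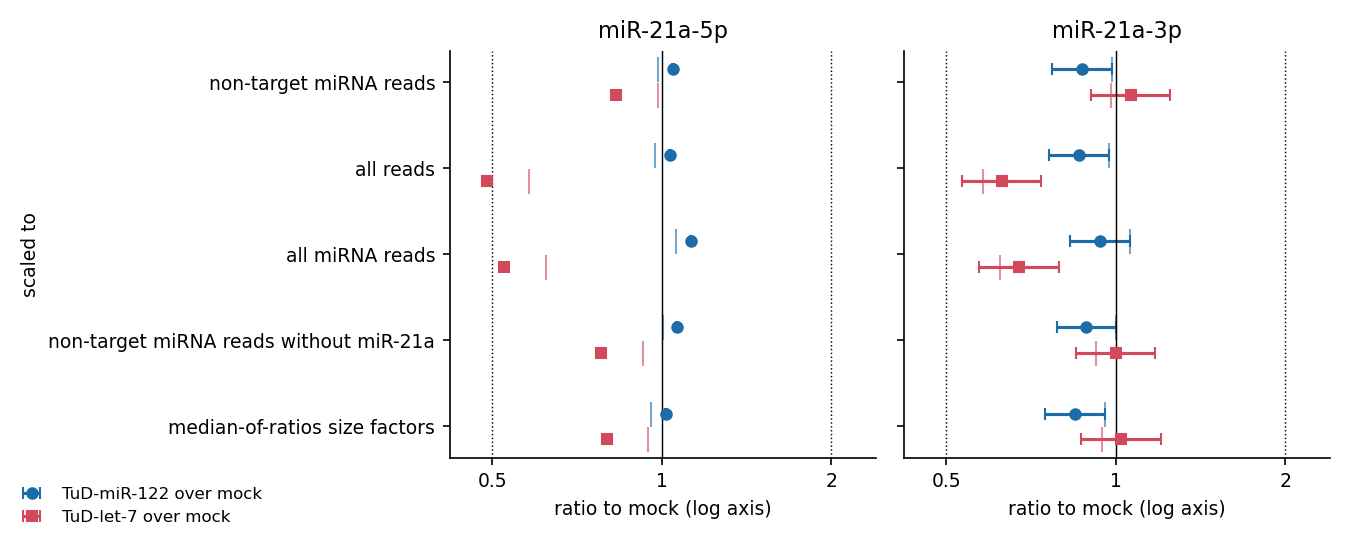
Ratio to mock (log axis) of miR-21a-5p (left) and miR-21a-3p (right) under 5 scalings, for TuD-miR-122 (circles) and TuD-let-7 (squares), with exact 95% intervals, narrower than the symbols for miR-21a-5p; short vertical ticks are the medians of the non-target miRNAs and dotted lines mark 0.5 and 2. The TuD-let-7 points of miR-21a-5p sit at 0.489 and 0.525 when scaled to all reads or all miRNA reads, and between 0.778 and 0.828 on the other scales.

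The arms stood in a ratio of 796 reads of miR-21a-5p per read of miR-21a-3p in TuD-miR-122 (730 to 870), 516 in TuD-let-7 (451 to 594) and 663 in mock (611 to 722). None of the 3 intervals overlapped another. Among 15 precursors with at least 100 reads on each arm in every library, Mir21a had the most unequal arms in mock, where the median was 6.03 reads of the major arm per read of the minor arm. The next in mock was Mir29a, a precursor of the collagen-repressing miR-29 family, with 169. The minimum of 100 reads leaves out precursors with a scarcer minor arm, and a ratio this large can pass it only with a very abundant major arm. The first place of Mir21a therefore holds among these 15 only. The arm ratio in TuD-let-7 over mock was 0.778 for Mir21a, with 10 of the other precursors above it and 4 below, and a median of 1.05. In TuD-miR-122 over mock it was 1.20 for Mir21a, which was itself the median precursor.

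The 3′ end of miR-21a-5p split between a 22-nt form, the length RefSeq lists, and a 23-nt form ending in C. The 22-nt form made up 53.2% of its reads in TuD-miR-122 (53.0 to 53.3), 49.7% in TuD-let-7 (49.4 to 50.02) and 47.4% in mock (47.2 to 47.5). The 23-nt form made up 28.3% in TuD-miR-122 (28.1 to 28.4), 32.8% in TuD-let-7 (32.5 to 33.0) and 34.9% in mock (34.7 to 35.0). Mock was thus the library with the largest share of the longer form and TuD-miR-122 the one with the smallest. The number of 23-nt reads per 22-nt read was 0.531 in TuD-miR-122 (0.528 to 0.535), 0.659 in TuD-let-7 (0.650 to 0.668) and 0.736 in mock (0.731 to 0.742). C is the next base of the precursor, so a C left by Dicer cutting and a C added afterwards have the same sequence and cannot be told apart.

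In RPM, the 22-nt and 23-nt forms lay on opposite sides of mock in TuD-miR-122. The 22-nt form had 149562 RPM in TuD-miR-122, against 127283 RPM in mock, a ratio of 1.18 (1.17 to 1.18). The 23-nt form had 79482 RPM in TuD-miR-122, against 93712 RPM in mock, a ratio of 0.848 (0.841 to 0.855). In TuD-let-7 both forms were below mock, at 0.869 (0.860 to 0.877) for the 22-nt form and 0.778 (0.768 to 0.787) for the 23-nt form. None of these 4 ratios reached 2-fold.

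The shorter and longer ends were minor. The 21-nt form made up 6.79% of miR-21a-5p reads in TuD-miR-122, 5.73% in TuD-let-7 and 6.08% in mock. The 24-nt form, ending in CT as the precursor does, made up 2.96% in TuD-miR-122, 2.28% in TuD-let-7 and 2.88% in mock. The 20-nt form made up 1.38% in TuD-miR-122, 1.10% in TuD-let-7 and 1.41% in mock. The mean matching length was 22.2 nt in TuD-miR-122, 22.2 nt in TuD-let-7 and 22.3 nt in mock. It differed from mock by -0.071 nt in TuD-miR-122, where the median difference of 49 miRNAs with at least 1000 reads in every library was -0.0059 nt and 11 of the other 48 had a lower one. In TuD-let-7 the difference was -0.065 nt, against a median of -0.13 nt, and 29 of the other 48 had a lower one.

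Bases that the precursor does not encode were rare on miR-21a-5p. A tail of any kind was present on 7.37% of reads in TuD-miR-122, 8.37% in TuD-let-7 and 7.34% in mock. Reads with T in place of G at position 21 (G21T) are counted among these tails. They were 589 of 30100 tailed reads in TuD-miR-122, 1203 of 9072 in TuD-let-7 and 497 of 27156 in mock. Other mismatches near the 3′ end are counted as tails too. Tailed reads that matched the precursor again after 1 mismatch numbered 1787 in TuD-miR-122 (5.94%), 752 in TuD-let-7 (8.29%) and 2074 in mock (7.64%). Of the other 48 abundant miRNAs, 45 were tailed more often in TuD-miR-122, 46 in TuD-let-7 and 44 in mock, and the median miRNA had tails on 25.3% of reads in TuD-miR-122, 31.9% in TuD-let-7 and 28.0% in mock. These shares include mismatches beyond the first 16 nt, such as those of miRNAs with G at position 19 in TuD-let-7. The part of such mismatches in the tail shares was not tested. miR-29b-3p and miR-451a-5p, a miRNA of red blood cells, were the only miRNAs less tailed than miR-21a-5p in mock among the 8 most abundant others, at 6.21% and 2.76% of reads. Tails of only A, an addition that the nucleotidyltransferase TENT2 (GLD2) is known to make on liver miRNAs, were present on 5.04% of miR-21a-5p reads in TuD-miR-122 (4.98 to 5.11), 4.32% in TuD-let-7 (4.20 to 4.45) and 4.90% in mock (4.84 to 4.97). The intervals of TuD-miR-122 and mock nearly touched, and TuD-let-7 lay below both. For miR-122-5p, the target of one decoy, the same share was 41.6% in TuD-miR-122, 17.9% in TuD-let-7 and 16.2% in mock.

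The added A depended on where the RNA ended. Among reads matching for 23 nt, which end in C before the tail, 9.07% carried an A tail in TuD-miR-122 (8.91 to 9.23), 6.63% in TuD-let-7 (6.38 to 6.88) and 7.79% in mock (7.65 to 7.93). Among reads matching for 22 nt the share was 3.41% in TuD-miR-122, 3.36% in TuD-let-7 and 3.45% in mock, and these intervals overlapped. Among reads matching for 24 nt it was 0.115% in TuD-miR-122, 0.0804% in TuD-let-7 and 0.167% in mock, although the intervals are wide. Among the few reads matching for 20 nt it was 12.9% in TuD-miR-122 (12.2 to 13.7), 6.89% in TuD-let-7 (6.01 to 7.86) and 9.48% in mock (8.79 to 10.2). This was the highest share of these lengths in each library, although in TuD-let-7 its interval overlapped that of 23 nt. The reads matching for 20 nt include longer reads with G21T, which count as not A-tailed and so lower the share. They were 589 of 7868 reads in TuD-miR-122, 1203 of 2960 in TuD-let-7 and 497 of 6754 in mock. The share was lowered most in TuD-let-7, so the libraries cannot be ranked by it. After 21 nt the precursor itself has A, so an added A there is counted as the 22-nt form. The 23-nt form with an added A was the more frequent A-tailed insert, at 2.85% of miR-21a-5p reads in TuD-miR-122, 2.35% in TuD-let-7 and 2.97% in mock. The 22-nt form with an added A followed at 1.72% in TuD-miR-122, 1.58% in TuD-let-7 and 1.55% in mock. A cytosine of miR-21a-5p was read as A in 0.0907% of cases in TuD-miR-122, 0.121% in TuD-let-7 and 0.0786% in mock. The part of base misreading in the A-tailed forms was not tested.

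A C that the precursor does not encode, after the 23-nt form, was found on 0.263% of miR-21a-5p reads in TuD-miR-122 (0.248 to 0.279), 0.287% in TuD-let-7 (0.256 to 0.320) and 0.303% in mock (0.286 to 0.322). Tails of mixed bases made up 1.06% in TuD-miR-122, 2.51% in TuD-let-7 and 1.18% in mock. In TuD-let-7 the mixed tails numbered 2720 reads. Reads with G21T count as a tail after 20 matching nt, because the matching part ends at the first mismatch. There were 589 of them in TuD-miR-122, 1203 in TuD-let-7 and 497 in mock.

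**Figure D3:**
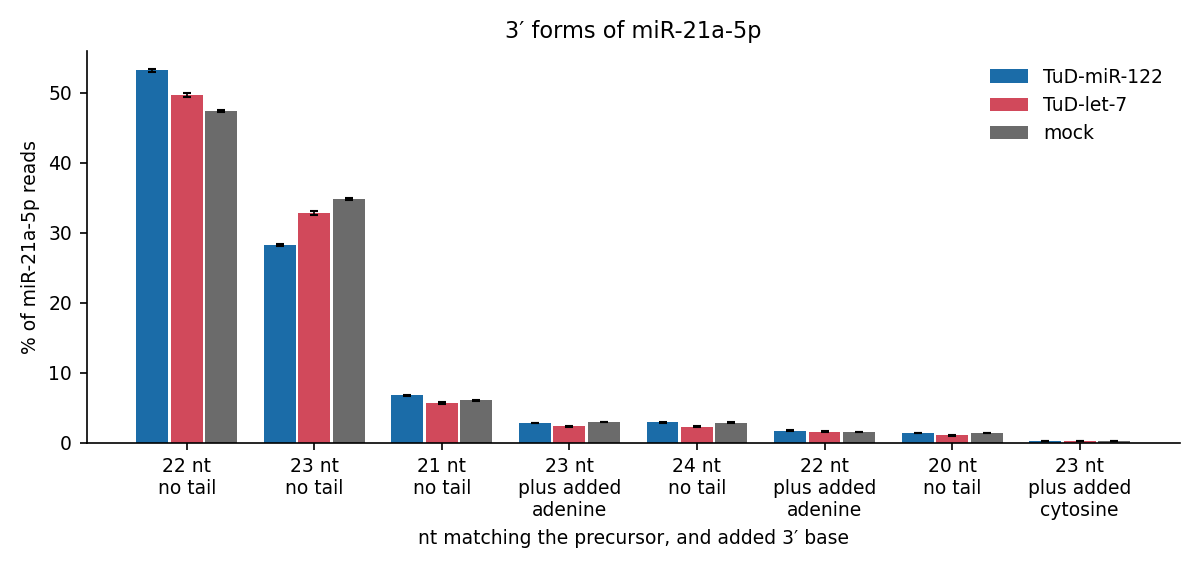
Share of miR-21a-5p reads (%) in its 8 most frequent exact 3′ forms in mock, for TuD-miR-122, TuD-let-7 and mock (bars from left to right), with exact 95% intervals; labels give the nt that match the precursor and any added base. The 22-nt bar is tallest for TuD-miR-122 at 53.2% and lowest for mock at 47.4%, the 23-nt bar is lowest for TuD-miR-122 at 28.3% and tallest for mock at 34.9%, and no other form passes 6.79%.

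The passenger arm ended differently. A tail of any kind was present on 48.7% of miR-21a-3p reads in TuD-miR-122 (44.3 to 53.2), 43.8% in TuD-let-7 (37.0 to 50.8) and 58.1% in mock (53.8 to 62.2). Tails of only A made up 25.3% in TuD-miR-122 (21.6 to 29.3), 30.5% in TuD-let-7 (24.3 to 37.2) and 35.1% in mock (31.2 to 39.2). The commonest tailed form, 21 nt with AA, made up 14.6% in TuD-miR-122, 16.2% in TuD-let-7 and 19.5% in mock, and the 22-nt form without a tail 32.7% in TuD-miR-122, 38.1% in TuD-let-7 and 27.1% in mock. The intervals of mock and TuD-miR-122 did not overlap for tails of any kind or for A tails, and those of mock and TuD-let-7 did not overlap for tails of any kind. In every library the 3p arm was tailed several times more often than the 5p arm.

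The 5′ ends also separated the arms. Of the untailed miR-21a-5p reads, whatever their start within the arm, 98.7% began exactly at the mature end in TuD-miR-122, 98.8% in TuD-let-7 and 98.8% in mock. Starts 1 nt later made up 0.921% in TuD-miR-122, 0.757% in TuD-let-7 and 0.866% in mock. Of the untailed miR-21a-3p reads, counted in the same way, 62.8% began at the mature end in TuD-miR-122, 63.1% in TuD-let-7 and 59.1% in mock. Starts 1 nt later made up 22.9% in TuD-miR-122, 21.9% in TuD-let-7 and 25.0% in mock, and starts 2 nt later 13.6% in TuD-miR-122, 14.97% in TuD-let-7 and 15.9% in mock. Such starts shift the seed, so the 5p seed was nearly uniform and the 3p seed was not. Untailed reads of the precursor that belonged to neither arm numbered 0 in TuD-miR-122, 0 in TuD-let-7 and 2 in mock.

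Internal mismatches of miR-21a-5p set the TuD-let-7 library apart. With 1 mismatch allowed over positions 1 to 19, followed by at least 3 matching bases, 6.27% of miR-21a-5p reads carried one in TuD-miR-122 (6.19 to 6.34), 22.1% in TuD-let-7 (21.9 to 22.3) and 5.64% in mock (5.56 to 5.71). The other 48 abundant miRNAs pooled had 9.13% in TuD-miR-122, 21.4% in TuD-let-7 and 8.28% in mock. miR-21a-5p was therefore among the least mismatched miRNAs in TuD-miR-122 and mock, with 45 of the 48 above it in TuD-miR-122 and with 46 in mock, and near the middle in TuD-let-7, with 21 above it.

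The excess in TuD-let-7 lay at a few positions. At position 11, 13.4% of reads carried a mismatch in TuD-let-7 (13.2 to 13.6), with 0.172% in TuD-miR-122 beside 0.123% in mock. In TuD-let-7, G11T made up 98.6% of them. At position 2 the shares were 0.200% in TuD-miR-122, 4.62% in TuD-let-7 and 0.204% in mock, with A2C making up 96.7% of the TuD-let-7 mismatches. At position 7 they were 0.163% in TuD-miR-122, 0.768% in TuD-let-7 and 0.187% in mock, mostly A7C in TuD-let-7. G21T was found in 0.177% of reads in TuD-miR-122, 1.33% in TuD-let-7 and 0.163% in mock. The median over positions 1 to 19 was 0.224% in TuD-miR-122, 0.441% in TuD-let-7 and 0.213% in mock. The altered inserts are shown with the mismatch in capitals, since positions 2 and 7 fall in the seed:
22-nt form, G11T: tagcttatcaTactgatgttga
22-nt form, A2C: tCgcttatcagactgatgttga
22-nt form, A7C: tagcttCtcagactgatgttga
22-nt form, G21T: tagcttatcagactgatgttTa
22-nt form, A2C and G11T: tCgcttatcaTactgatgttga
The insert with G11T had 196 reads in TuD-miR-122, 7332 in TuD-let-7 and 95 in mock. The insert with A2C had 52 reads in TuD-miR-122, 2462 in TuD-let-7 and 35 in mock. The insert with both had 0 reads in TuD-miR-122, 572 in TuD-let-7 and 0 in mock.

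**Figure D4:**
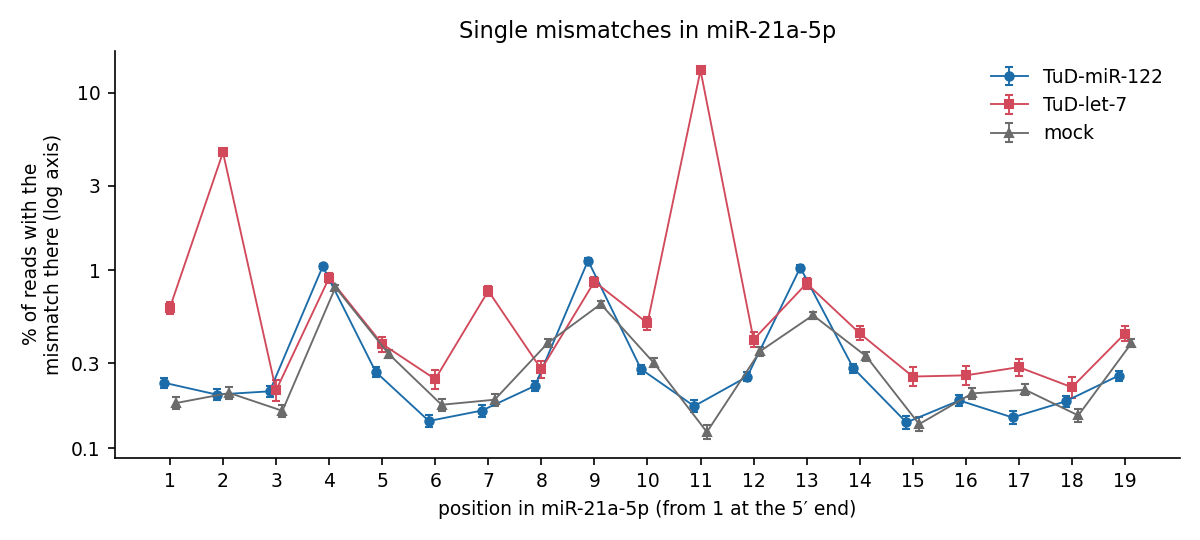
Share of miR-21a-5p reads (%, log axis) with a single mismatch at each position from 1 to 19, counted from the 5′ end, for TuD-miR-122 (circles), TuD-let-7 (squares) and mock (triangles), with exact 95% intervals. TuD-let-7 stands out at position 11 with 13.4% and position 2 with 4.62%, and all libraries have local peaks at the cytosines of positions 4, 9 and 13.

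The mismatch at position 11 was shared by other miRNAs with the same base there. In TuD-let-7 the 5 abundant miRNAs with G at position 11 had mismatches in 11.6% to 14.3% of reads. These were miR-185-5p with 14.3%, miR-21a-5p with 13.4%, miR-378a-3p with 12.8%, miR-7-5p with 12.1% and miR-92-1-3p with 11.6%. The 44 with another base there had a median of 0.704% and at most 2.32%. In TuD-miR-122 the 4 other miRNAs with G had a median of 0.171%, and in mock 0.140%. At position 2, the 17 other miRNAs with A had a median of 6.50% in TuD-let-7, against 0.227% in TuD-miR-122 and 0.233% in mock. There miR-21a-5p was the second lowest of the 18 in TuD-let-7. At position 7, the 14 others with A had a median of 1.90% in TuD-let-7, against 0.231% in TuD-miR-122 and 0.288% in mock.

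**Figure D5:**
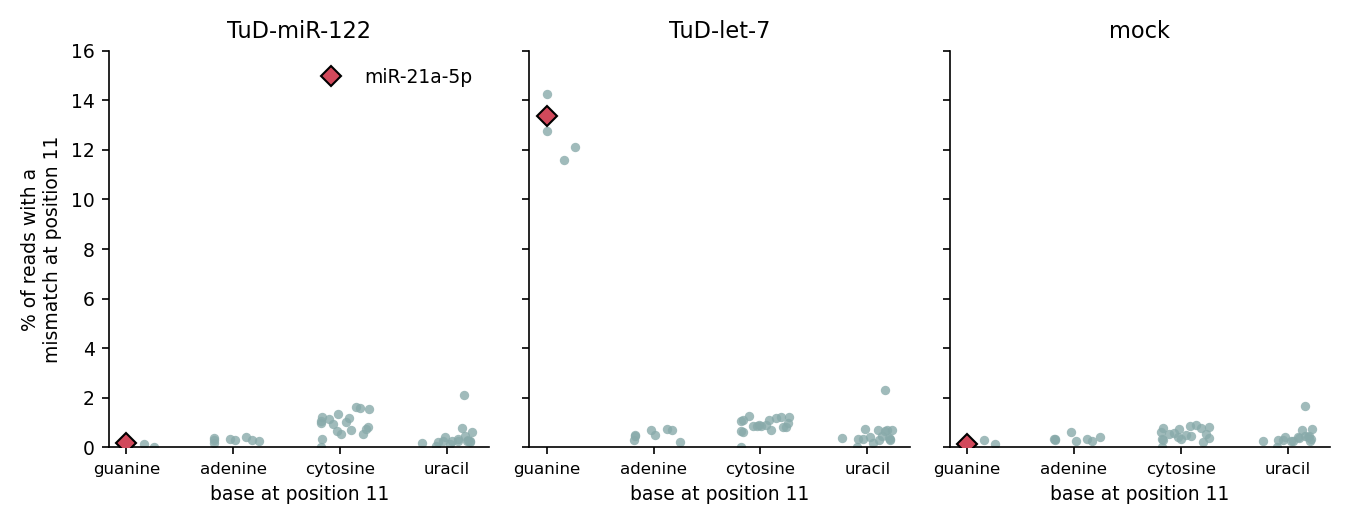
Share of reads (%) with a mismatch at position 11 for 49 abundant non-target miRNAs, by the base each has there, in TuD-miR-122, TuD-let-7 and mock (panels from left to right). The diamond is miR-21a-5p. In TuD-let-7 the 5 miRNAs with guanine sit between 11.6 and 14.3%, and all others in that library at 2.32% or less.

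Reads of miR-21a-5p that started 1 nt away from the mature end put the same G at another position of the read. In TuD-let-7, reads starting 1 nt later had that G at read position 10, where 87 of 940 reads, or 9.26% (7.48 to 11.3), carried a mismatch. The 16 other miRNAs with G at position 10 had a median of 8.84% in TuD-let-7. Reads starting 1 nt earlier had it at read position 12, where 10 of 309, or 3.24% (1.56 to 5.87), carried one, and the 8 other miRNAs with G at position 12 had a median of 5.20%. At read position 11 these shifted reads have A, and the mismatch share there was 0.350% (0.0723 to 1.02) for the later start and 0.333% (0.00844 to 1.84) for the earlier one. Both intervals of the shifted G held the median of the other miRNAs with G at that read position. In TuD-let-7, G11T was found at 11.3% to 13.3% over the untailed forms of 20 to 24 nt and the A-tailed forms of 22 and 23 nt, so no 3′ form carried the mismatch alone. Among TuD-let-7 reads of 21 to 23 nt, A2C was present on 7.47% of reads with G11T (7.03 to 7.92) and on 4.35% of reads without it (4.23 to 4.48). The source of these mismatches was not tested.

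A smaller difference touched the cytosines. At position 9, 1.14% of reads carried a mismatch in TuD-miR-122, 0.865% in TuD-let-7 and 0.647% in mock, mostly C9T. At position 13 the shares were 1.04% in TuD-miR-122, 0.845% in TuD-let-7 and 0.560% in mock. Over all cytosines of miR-21a-5p, C was read as T in 0.860% of cases in TuD-miR-122, 0.618% in TuD-let-7 and 0.414% in mock. The other abundant miRNAs showed the same order, at 0.766% in TuD-miR-122, 0.669% in TuD-let-7 and 0.417% in mock.

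Mismatched reads stay outside the exact counts, so they bear on the level. Allowing 1 mismatch added 6.22% of reads to miR-21a-5p in TuD-miR-122, 27.5% in TuD-let-7 and 5.38% in mock, and to the non-target miRNAs as a whole 8.48% in TuD-miR-122, 24.3% in TuD-let-7 and 7.71% in mock. With these reads the level of miR-21a-5p in TuD-let-7 over mock was 0.868, against 0.828 without them. With up to 3 mismatches over the first 20 nt it was 0.872.

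miRNAs of other cell types give the setting for these levels. The immune list (miR-223-3p, miR-142-3p, miR-142-5p, miR-150-5p, miR-155-5p, miR-146-5p and miR-146b-5p) summed to 12876 RPM in TuD-miR-122, 10709 RPM in TuD-let-7 and 13558 RPM in mock. None of the 7 tested in TuD-miR-122 passed the 2-fold rule, where 18.5% of all non-target miRNAs passed, and their median ratio over mock was 1.0. None of the 6 tested in TuD-let-7 passed it, where 7.77% of all passed, and their median was 0.707. The stellate and stromal list (miR-143-3p, miR-145a-5p, miR-199a-3p, miR-199a-5p and miR-214-3p) summed to 24254 RPM in TuD-miR-122, 23873 RPM in TuD-let-7 and 20743 RPM in mock, and the endothelial miR-126a arms to 28775 RPM in TuD-miR-122, 21962 RPM in TuD-let-7 and 23746 RPM in mock. None of these passed the rule either, and in lists this short a count of 0 is near the shares over all miRNAs. All 3 muscle miRNAs fell past 2-fold in both decoy libraries, and all 3 pancreas miRNAs rose past 2-fold in TuD-miR-122. No listed marker was at 0 reads in any library. The part of these cell types in the miR-21a levels was not tested.

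Of 6 hepatocyte arms, none passed the rule in TuD-miR-122, where 18.5% of all non-target miRNAs passed. These arms include miR-122-5p and miR-122-3p, which come from the target of that decoy. In TuD-let-7, miR-122-5p passed as higher, at 2.70 of mock, and miR-802-5p as lower, at 0.178 of mock. The value for miR-122-5p belongs to the non-target scale, which leaves its own reads out. Its share of all miRNA reads was 64.6% in TuD-let-7 and 37.7% in mock, which is short of 2-fold. miRNAs known beside miR-21 from injured or fibrotic liver passed it in 0 of 7 cases in TuD-miR-122, with a median ratio of 0.851, where 18.5% of all non-target miRNAs passed. In TuD-let-7 it was 0 of 7, with a median of 0.922, where 7.77% of all passed. Among 7 miRNAs a count of 0 is near these shares. Among them miR-34a-5p, a p53 target gene product, was at 0.851 of mock in TuD-miR-122 and at 0.952 in TuD-let-7. miR-221-3p, known from proliferating liver, was at 1.14 in TuD-miR-122 and at 1.10 in TuD-let-7.

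The miRNAs whose pair of ratios lay closest to that of miR-21a-5p, by the distance between their log2 ratios over the 3 libraries among 48 miRNAs with at least 1000 reads in each, were miR-15a-5p, miR-26a-5p, miR-23a-3p and miR-29c-3p. miR-15a-5p had ratios to mock of 0.998 in TuD-miR-122 and of 0.868 in TuD-let-7, at a distance of 0.097. miR-26a-5p had 1.03 in TuD-miR-122 with 0.776 in TuD-let-7, at a distance of 0.098. miR-23a-3p had 1.07 in TuD-miR-122 with 0.888 in TuD-let-7, at a distance of 0.11. miR-29c-3p was farther away at 0.21, with 1.19 in TuD-miR-122 and with 0.889 in TuD-let-7. Both ratios share the mock library, and the likeness is a description of 3 libraries.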

How the data were processed

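For each of the 3 libraries the authors deposited raw read counts per distinct insert sequence, not normalised, with inserts of 15 to 30 nt. Per the labels' protocols, RNA was extracted with the miRvana kit and RNAs of 18 to 30 nt were gel-purified. The sources used here do not give adapter removal, filters, an aligner or a build.

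Precursors were the 1174 miRNA genes of the GENCODE annotation of GRCm38. The 5′ end of an arm was the most frequent start of untailed reads of at least 18 nt, for arms with at least 10 reads, and for both miR-21a arms it equalled that of RefSeq. Arms identical over 22 nt were merged, which gave 419 entries from 475 arms. A read had to start at the arm's 5′ end and match for at least 16 nt, and up to 5 further nt were called a tail, base-call errors included. Ratios have exact conditional-binomial intervals and shares exact Clopper-Pearson intervals at 95%. Mismatch shares are reads with 1 mismatch at a position over those plus the exact reads.

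The named miRNAs were both miR-21a arms, the 8 other non-target miRNAs with most reads in mock, miR-122-5p, the 4 with the most similar pair of ratios, the members of the cell type lists, and the most frequent inserts. miRNAs singled out at position 11 were chosen after their values were seen, as those with G there. The members and lists were chosen with earlier results of these data known. Alternatives were other scalings, read assignments and minimums, and up to 3 mismatches over 20 nt, which was added after seeing the data. The counting code was tested on simulated data. Python 3.11, numpy 2.4.6 and scipy 1.17.1 were used.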

Additional observations from a re-analysis of the deposited data

How the results depend on the processing

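No paired analysis was possible because each group has 1 library, and for the same reason no library could be left out. The level of miR-21a-5p in TuD-miR-122 over mock (1.05) was 1.03 scaled to all reads, 1.13 to all miRNA reads, 1.06 without miR-21a in the denominator and 1.02 with median-of-ratios size factors, and 1.26 over TuD-let-7 in place of mock. In TuD-let-7 over mock (0.828) it was 0.489, 0.525, 0.778 and 0.797 under those scalings in the same order, 0.868 with 1 mismatch, 0.872 with up to 3 mismatches, 0.817 with starts within 2 nt, and 0.791 over TuD-miR-122. miR-21a-3p in TuD-let-7 over mock (1.06) was 0.628 scaled to all reads and 0.674 scaled to all miRNA reads. The direction against mock turned for this value only, and its interval on the main scale held 1.

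With starts within 2 nt, the reads of miR-21a-5p per read of miR-21a-3p were 574 in TuD-miR-122, 353 in TuD-let-7 and 484 in mock, in the same order of libraries as before. The share of miR-21a-5p reads matching for 22 nt, 55.6% in TuD-miR-122, 52.0% in TuD-let-7 and 49.5% in mock, was 55.8%, 51.5% and 49.7% with 1 mismatch, and 55.4% in TuD-miR-122 and 49.3% in mock with starts within 2 nt. The 23-nt form in TuD-let-7 was 32.2% with 1 mismatch. Untailed inserts of 21 to 23 nt gave a mismatch share at position 11 of 0.156% in TuD-miR-122 and of 11.9% in TuD-let-7. With a minimum of 20 reads, 52 miRNAs passed 2-fold as higher in TuD-miR-122 and 12 did in TuD-let-7, and scaling to all reads gave 4 as higher and 38 as lower in TuD-let-7. Asking for 18 matching nt, or leaving out inserts read once, moved none of the values tried by more than counting error.

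Depth limits miR-21a-3p, with 210 reads in TuD-let-7, and reads with shifted starts. A count of 0 there allows up to 3 reads, or 6.15 RPM in TuD-let-7 against 2.18 RPM in mock. PCR copies, differences between animals and differences between library preparations are not in any interval.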
